A study of Homo sapiens with 4 samples.

Results

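The accessible chromatin sites described here lie around MYC and the non-coding gene PVT1, on human chromosome 8, in ME-1 leukaemia cells. Members are merged peak regions of the interval chr8:128000001-131000000 (hg19) that held a peak in all 4 deposited ATAC-seq peak lists. They number 50 of the 180 merged regions of that 3 Mb domain, and 50 of the 29042 regions found in all 4 lists genome-wide, called shared regions below. ATAC-seq marks open DNA by the insertion of adapters by the Tn5 transposase. The groups were ME-1 cells given the inhibitor AI-10-49 at 1 µM for 6 h and ME-1 cells given its solvent DMSO for 6 h, with 2 libraries each. ME-1 is a single line of inv(16) acute myeloid leukaemia, and all libraries carry its fusion protein CBFβ-SMMHC. The 2 libraries of a treatment came from independent experiments, and nothing in the labels ties a numbered library of one group to that of the other. The identity of the cells was not checked against marker genes, because no annotation of hg19 was used here.

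MYC encodes a transcription factor that drives growth and division. Its promoter is controlled by enhancers spread over a long stretch downstream, some of them inside PVT1, whose promoter and transcript are also known to influence MYC. Farther out, past PVT1, lies a cluster of enhancers that serves MYC in blood stem cells and in myeloid leukaemia. CBFβ-SMMHC binds RUNX1, a DNA-binding regulator of blood genes, and AI-10-49 was designed to break that contact. The series asks how this acts on the chromatin of MYC. RefSeq's gene table for GRCh38.p14, used for names and their order alone, places PVT1, CCDC26, GSDMC and CYRIB after MYC. The sites were divided into 4 sets. The MYC promoter block (128.74 to 128.76 Mb) held 4 sites, the PVT1 body block (128.80 to 129.12 Mb) held 10, the distal enhancer block (130.40 to 130.80 Mb) held 12, and 24 lay elsewhere in the domain. The blocks are fixed intervals. What is called the main promoter site below is the site of the promoter block with the highest mean −log10 p-value with DMSO. Without an annotation of hg19, which site of that block covers the start of MYC was not determined.

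Height was read from the authors' own values for each peak, the −log10 p-value (column 8 of the lists) and the fold enrichment over local background (column 7). Such values rank peaks within a library only. Each site was therefore given its percentile among the 29042 shared regions of the same library, so that every library ranks the same set. The difference between mean AI-10-49 and mean DMSO percentile was then set against the median difference of the other shared regions in the same 1 of 50 strata of mean DMSO percentile. The result is called the matched difference, in percentile points, and is negative where AI-10-49 is lower. With 2 libraries against 2, a two-sided exact permutation test cannot go below p = 0.333, so no single site could pass 0.05. The lists held 48930 and 53438 peaks for AI-10-49 and 67388 and 65132 for DMSO. The total depth of the libraries is unknown from these files.

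In the median, shared sites of the MYC and PVT1 domain ranked somewhat lower with AI-10-49 than sites of equal DMSO rank elsewhere, by less than the spread between replicates. So did the rest of chromosome 8 in the median. The median percentile of the 50 sites was 53.1 and 59.5 in the AI-10-49 libraries and 62.5 and 56.3 in the DMSO libraries, so the libraries of the 2 groups overlapped. Their median matched difference was -3.87 points in column 8 and -3.16 in column 7. It was -2.90 and -2.98 at the 1855 shared regions of the rest of chromosome 8, and 0 by construction over all 28992 other shared regions. When the domain was matched to the rest of chromosome 8 alone, the column 8 value was -0.76. The value of -3.87 also depended on the libraries and was -0.79 without AI-10-49 replicate 1. For AI-10-49 replicate 1 alone it was -4.67 and -3.26 against DMSO replicates 1 and 2. For AI-10-49 replicate 2 alone it was -2.49 and 0.086. The spread between replicates, as an SD of the library medians, was 4.47 points.

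Sites whose groups did not overlap were counted next. At 14 of the 50 sites both AI-10-49 percentiles of column 8 lay below both DMSO percentiles (28%), against 18.8% of all other shared regions and 24.7% of the rest of chromosome 8. The opposite order held at 7 sites (14%), against 19.6% of all others and 13.0% of the rest of chromosome 8. In column 7 the numbers were 15 lower, against 18.2% and 23.7%, and 6 higher, against 19.2% and 12.5%. In these columns the shares of the domain and of the rest of chromosome 8 differed by at most a few sites. Other regions of the same DMSO strata were lower at 21.9% and higher at 17.7% in column 8.

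Percentiles within the whole list of a library gave more lower sites, everywhere in the genome. By column 8, 25 sites were lower without overlap and 3 higher, against 29.1% and 11.8% of all other shared regions and 36.3% and 7.71% of the rest of chromosome 8. By column 7, 27 were lower and 3 higher, against 30.0% and 10.9%. The AI-10-49 lists were shorter, and ranks in lists of different length cannot be compared directly. Matched to other regions, the medians were -3.31 and -3.36 points. Ranked by the reads at the summit, recovered from fold and p-value, 20 sites were lower without overlap (40%), against 18.8% of all other shared regions and 24.5% of the rest of chromosome 8. By reads 6 were higher (12%), against 20.3% and 13.0%. The ranking by reads was chosen after the data were seen, and its lower sites exceeded the share of chromosome 8 by more than those of columns 8 and 7. The median matched difference by reads was -3.77 points, against -2.47 on the rest of chromosome 8.

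**Figure D1:**
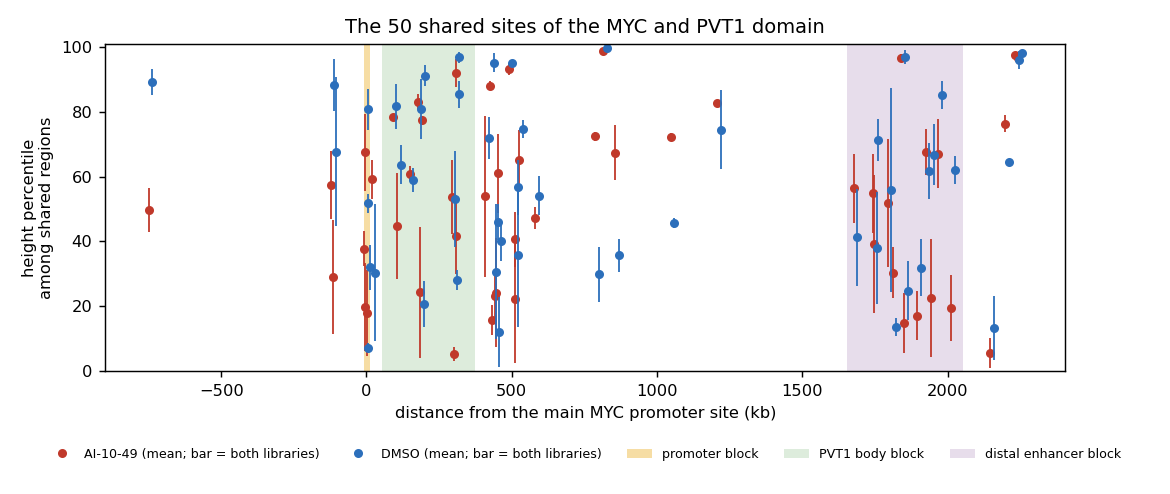
Height percentile (−log10 p-value, among 29042 shared regions of the same library) of the 50 sites against distance in kb from the main MYC promoter site. Points are means of 2 libraries, bars join the 2 libraries, the groups are set slightly apart sideways, and shaded bands mark the 3 blocks. The AI-10-49 libraries lie below the DMSO libraries at 14 sites and above them at 7, and the 5 sites above the 90th percentile in all libraries stand at the top in both groups.

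**Figure D2:**
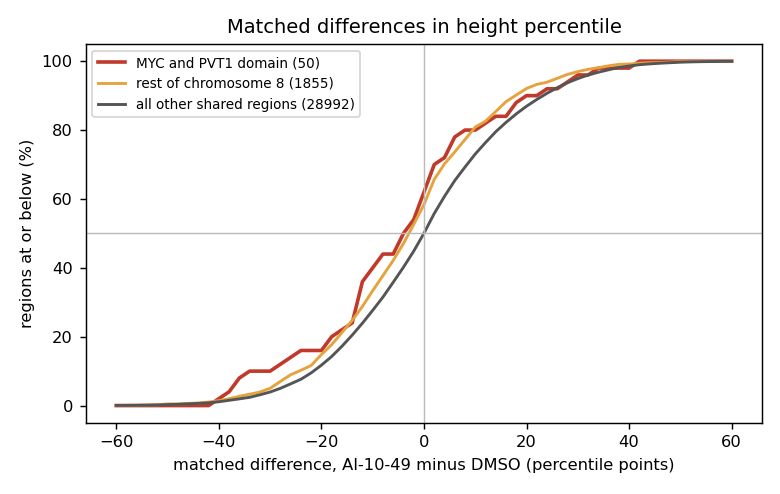
Cumulative share of shared regions at or below a given matched difference (AI-10-49 minus DMSO, in percentile points). At 0 the domain has 62% of its sites at or below, the rest of chromosome 8 has 58.3% and all other shared regions 49.95%.

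In the MYC promoter block, all 4 sites had a negative matched difference, from -12.3 to -1.66 points with a median of -9.16. The groups stood apart at 1 site only, lower with AI-10-49. The share of such lower regions was 18.8% of all other shared regions and 24.7% of the rest of chromosome 8. The main promoter site, chr8:128747429-128747695, was the highest of the block. Its −log10 p-value was 13.6 and 23.7 with AI-10-49 and 17.6 and 20.7 with DMSO. Its percentile was 55.5 and 79.5 with AI-10-49, against 74.5 and 87.2 with DMSO. The second AI-10-49 library ranked above the first DMSO library, and the gap of 24.0 points between the AI-10-49 libraries exceeded the difference of -13.3 between the group means. Its matched difference was -9.49, and 28.9% of the 578 other regions of its stratum had a lower difference. It was 1.37 without AI-10-49 replicate 1 and 1.76 without DMSO replicate 2, against -23.3 without AI-10-49 replicate 2. Within whole lists its percentile was 72.1 and 88.77 with AI-10-49 and 88.84 and 94.2 with DMSO, which just kept the groups apart.

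Just upstream of the main site, at -1.16 kb, chr8:128746312-128746495 had percentiles of 43.1 and 32.5 with AI-10-49 and 54.7 and 48.9 with DMSO. Here both AI-10-49 libraries lay below both DMSO libraries (exact permutation p = 0.333), with a matched difference of -8.83. Of its 579 stratum neighbours, 31.95% had a lower difference. At 0.85 kb downstream of the main site, chr8:128748269-128748562 was weak, at 33.2 and 6.25 with AI-10-49 and 8.72 and 5.71 with DMSO. Its plain difference was 12.5 points, but other regions as weak with DMSO also ranked higher with AI-10-49, and its matched difference was -1.66. That value was 13.9 without AI-10-49 replicate 2 and -13.4 without AI-10-49 replicate 1. The last site of the block, chr8:128755285-128755465 at 7.81 kb, had 4.69 and 31.2 with AI-10-49 and 25.1 and 38.8 with DMSO, and a matched difference of -12.3. Medians over the block were 38.2 and 31.8 with AI-10-49 and 39.9 and 43.9 with DMSO, or 35.0 ± 4.51 and 41.9 ± 2.79 (SD, n = 2 each). Matched in single pairs of an AI-10-49 and a DMSO library, the block's median was -12.7 to -9.09 in all 4 pairs. In the median over single sites, the AI-10-49 replicates differed by more than the treatments. The median gap was 25.2 points between the AI-10-49 libraries and 9.24 between the DMSO libraries, whichever was higher. The median absolute difference between the group means was 13.7. At 1 site, the upstream one, the difference between the means exceeded both gaps. The AI-10-49 replicates moved apart in opposite directions at different sites. Column 7 gave a block median of -11.9. No test of these 4 sites as a set was made, and 2 of them rest on summits of 12 reads or fewer in every library.

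At 3 of the 4 promoter sites the local background against which peaks were called was high. Summit reads and local background were recovered from fold and p-value, as described in the processing section. Local background was 0.99 and 1.33 reads with AI-10-49 and 1.15 and 1.06 with DMSO at the upstream site, and 1.02 and 1.35 with AI-10-49 and 1.16 and 1.09 with DMSO at the main site. At the site 0.85 kb downstream it was 1.04 and 1.36 with AI-10-49 and 1.17 and 1.09 with DMSO. The site at 7.81 kb had 0.33 and 0.29 with AI-10-49 and 0.31 and 0.36 with DMSO, near the medians of 0.297 and 0.353 with AI-10-49 and 0.247 and 0.277 with DMSO over the 50 sites. At shared regions elsewhere the median was 0.250 and 0.287 with AI-10-49 and 0.198 and 0.187 with DMSO. The block's median was 10.4 and 12.5 times the most common background of the AI-10-49 libraries and 18.9 and 17.9 times that of the DMSO libraries, against 2.59 and 2.66 times and 3.23 and 3.12 times at shared regions elsewhere. The block ranked higher by reads than by p-value. By reads its median percentile was 69.4 and 58.5 with AI-10-49 and 70.4 and 69.6 with DMSO. The main site had 15 and 25 summit reads with AI-10-49 and 19 and 21 with DMSO. The exact Poisson 95% intervals, which cover counting error only, were 8.40 to 24.7 and 16.2 to 36.9 for the AI-10-49 libraries, and 11.4 to 29.7 and 13.0 to 32.1 for the DMSO libraries. By percentile of reads, 3 of the 4 promoter sites were lower without overlap, and the site at 0.85 kb had a matched difference of 5.28. By reads, 18.8% of all other shared regions and 24.5% of the rest of chromosome 8 were lower without overlap. Since the total depth is unknown, the raw reads were not compared between libraries.

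**Figure D3:**
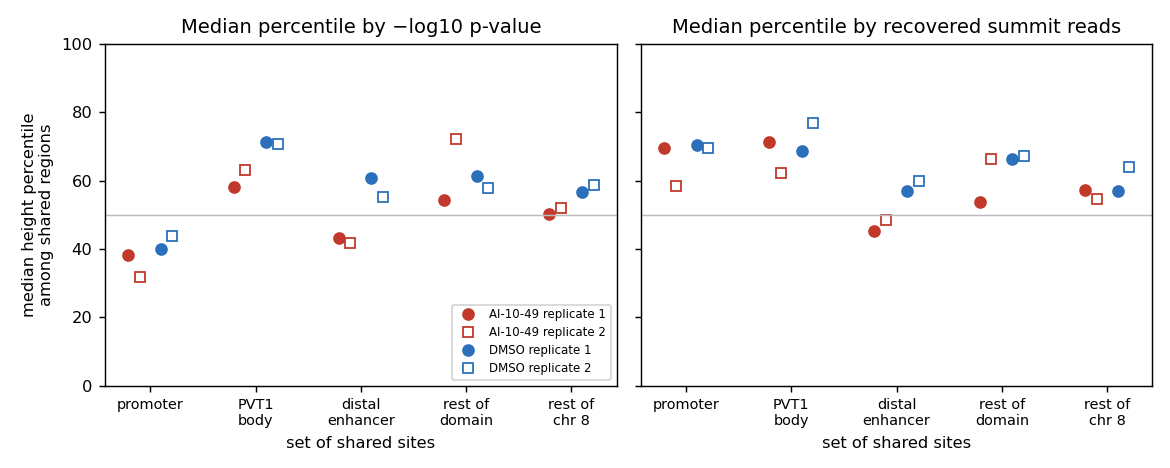
Median percentile of the sites of each block in each library, ranked by −log10 p-value (left) and by recovered summit reads (right), beside the rest of chromosome 8. The promoter block lies between 31.8 and 43.9 by p-value and between 58.5 and 70.4 by reads; AI-10-49 medians of the distal block lie below its DMSO medians in both.

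In the PVT1 body, 2 of the 4 sites with the highest mean −log10 p-value with DMSO lay lower with AI-10-49 without overlap, and the other 2 overlapped. These 4 were picked for height with DMSO, which by itself favours a lower rank with AI-10-49, so the count is no separate evidence. The block's median percentile was 58.2 and 63.2 with AI-10-49 and 71.4 and 70.7 with DMSO, or 60.7 ± 3.58 and 71.0 ± 0.456 (SD, n = 2 each). That SD of medians hides the spread at single sites. There the median gap was 6.73 points between the AI-10-49 libraries and 10.3 between the DMSO libraries. The difference between the group means had a median of -4.16 over the sites, and of 4.20 in absolute size. Of the block's 10 sites, 3 were lower without overlap, 0 were higher and 7 overlapped. On the rest of chromosome 8, 24.7% were lower and 13.0% higher, against 18.8% and 19.6% of all other shared regions. These shares cover regions of any height with DMSO. A negative matched difference was found at 6 of the 10 sites, against 58.3% of the rest of chromosome 8. The block's median matched difference was -3.33 points, but it turned to 0.56 without AI-10-49 replicate 1 and was -9.73 without AI-10-49 replicate 2. Against the rest of chromosome 8 it was -0.34. Single pairs of libraries gave -14.6 and -6.79 for AI-10-49 replicate 1 and 1.69 and 0.025 for AI-10-49 replicate 2, each against DMSO replicates 1 and 2. The AI-10-49 libraries themselves differed by 7.502, replicate 2 minus replicate 1.

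A pair of neighbouring sites in PVT1 differed in behaviour. At 313 kb from the main promoter site, chr8:129060752-129060928 had −log10 p-values of 13.1 and 10.5 with AI-10-49 and 25.2 and 18.1 with DMSO. Its percentile was 53.1 and 29.98 with AI-10-49 and 89.6 and 81.2 with DMSO, and no library of one group reached the other. It had 14 and 12 summit reads with AI-10-49 and 23 and 17 with DMSO. The exact Poisson 95% intervals, for counting error only, were 7.65 to 23.5 and 6.20 to 21.0 with AI-10-49. With DMSO they were 14.6 to 34.5 and 9.90 to 27.2. The site was picked for its low matched difference and its height with DMSO, so the lack of overlap in percentile is no separate evidence. Its matched difference of -41.7 was the lowest of the 50 sites in column 8, with 1.21% of its 579 stratum neighbours lower. By reads it was -24.3 and within whole lists -28.2; in column 7, at -41.3, by reads and within whole lists the distal site at 1948 kb was lower. The adjoining site at 314 kb, chr8:129061468-129061715, held 24 and 37 reads with AI-10-49 and 28 and 31 with DMSO. It ranked at 87.6 and 96.3 with AI-10-49 and 95.1 and 98.6 with DMSO, with overlapping groups and a matched difference of -3.33, which was 0.17 without AI-10-49 replicate 1 and 0.43 without DMSO replicate 2. Both sites had nearly the same local background, at 0.91 and 0.94 reads with AI-10-49 and 0.90 and 0.78 with DMSO.

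Among the other strong PVT1 sites, chr8:128944055-128944274 at 197 kb was lower without overlap, at 77.3 and 77.7 with AI-10-49 and 94.4 and 88.1 with DMSO. Its matched difference was -10.8. The site at 182 kb, chr8:128929799-128930245, was as high with AI-10-49 as with DMSO. It ranked at 80.6 and 85.4 with AI-10-49 and 90.3 and 71.6 with DMSO, with the AI-10-49 libraries between the DMSO libraries. Its matched difference of 5.93 was 24.1 without DMSO replicate 1 and -2.12 without DMSO replicate 2. By mean DMSO percentile, at 80.9, it came after the site at 96.4 kb, chr8:128843833-128844117, at 81.7. That site ranked at 78.5 and 78.1 with AI-10-49 and 74.9 and 88.6 with DMSO, with overlapping groups and a matched difference of 0.40. The third lower site, chr8:129054614-129054826 at 307 kb, was weak in every library, at 3.08 and 7.41 with AI-10-49 and 24.9 and 31.0 with DMSO.

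**Figure D4:**
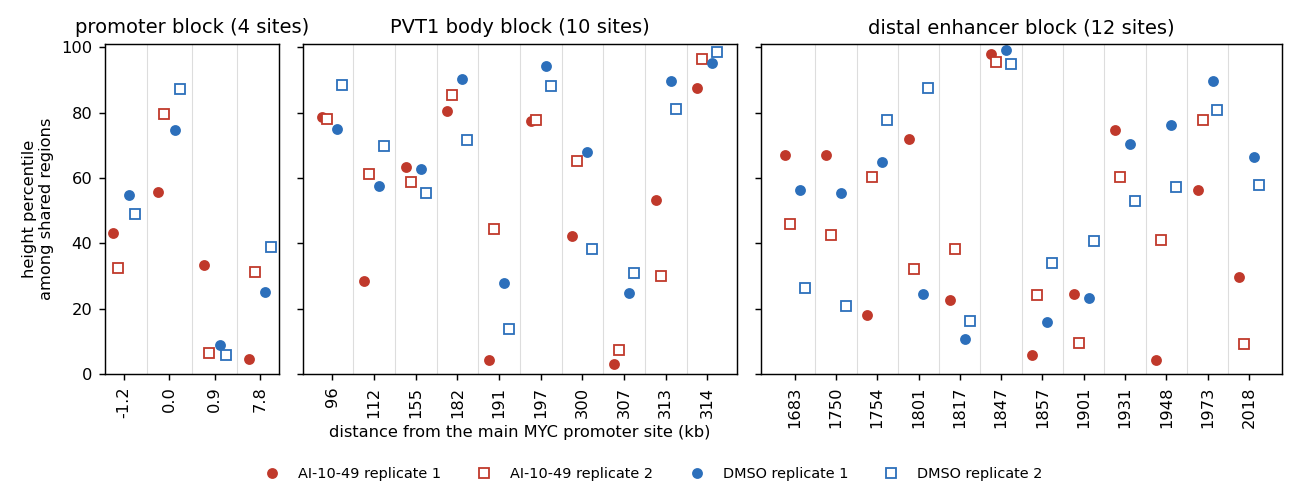
Height percentile of each site of the promoter, PVT1 body and distal enhancer blocks in each of the 4 libraries, ordered by distance in kb from the main MYC promoter site. Among the distal sites, 4 have both AI-10-49 points below both DMSO points, and the tallest, at 1847 kb, stays near the top in all libraries.

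The distal enhancer block held 1 site near the top in every library and 2 of the 3 lowest matched differences of the domain. Its median percentile was 43.1 and 41.7 with AI-10-49 and 60.6 and 55.2 with DMSO, or 42.4 ± 0.965 and 57.9 ± 3.86 (SD, n = 2 each). At single sites the median gap was 20.9 points between the AI-10-49 libraries and 17.5 between the DMSO libraries. The difference between the group means had a median of -6.96 over the sites, and of 16.0 in absolute size. The sites went both ways. Of 12, 4 were lower without overlap and 1 was higher. Those shares were 18.8% and 19.6% at all other shared regions, and 24.7% and 13.0% on the rest of chromosome 8. A negative matched difference was found at 6 of the 12. The matched differences ran from -39.9 to 19.3, with a median of -5.98. The median was -12.7 without DMSO replicate 1 and -2.95 without AI-10-49 replicate 2, and it turned to 1.23 over the 7 sites left with 50% reciprocal overlap of the peaks.

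The tallest distal site, chr8:130593907-130594647 at 1847 kb, was made of 7 peaks over 741 bp, the widest of the 50. It ranked at 98.0 and 95.6 with AI-10-49 and 99.0 and 94.9 with DMSO, and its groups overlapped. The lower sites without overlap flanked it on both sides. At 1948 kb, chr8:130695828-130696079 had −log10 p-values of 5.59 and 12.3 with AI-10-49 and 18.2 and 12.2 with DMSO. Its percentile was 4.17 and 40.9 with AI-10-49 and 76.2 and 57.4 with DMSO, a matched difference of -39.9 with 2.07% of 580 stratum neighbours lower, and -41.95 in column 7. The AI-10-49 libraries lay 36.7 points apart. In column 8 the matched difference was -23.6 without AI-10-49 replicate 1 and -59.0 without AI-10-49 replicate 2. The site had 5 and 12 summit reads with AI-10-49 and 16 and 11 with DMSO. By percentile of reads it ranked at 13.7 and 59.9 with AI-10-49 and 86.1 and 75.5 with DMSO. Its matched difference by reads was -42.5. At 2018 kb, chr8:130765948-130766151 ranked at 29.7 and 9.14 with AI-10-49 and 66.3 and 57.8 with DMSO, a matched difference of -37.5. It had 6 and 5 reads with AI-10-49 and 8 and 8 with DMSO. The sites at 1948 and 2018 kb were picked for their low matched differences, so their lack of overlap is no separate evidence.

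At 1973 kb, chr8:130720399-130720548 was lower by less, at 56.4 and 77.7 with AI-10-49 and 89.6 and 80.9 with DMSO. At 1754 kb, chr8:130501603-130501821 ranked at 18.0 and 60.4 with AI-10-49 and 65.0 and 77.7 with DMSO. The gap between its AI-10-49 libraries was larger than the difference between the group means of -32.2, and its matched difference of -27.8 was -8.78 without AI-10-49 replicate 1. The sites at 1754 and 1973 kb were picked for height with DMSO, so their lack of overlap is no separate evidence. The single higher distal site, chr8:130564699-130565053 at 1817 kb, was weak, at 22.5 and 38.3 with AI-10-49 and 10.7 and 16.3 with DMSO.

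Outside the blocks the 24 sites went both ways, with 6 lower and 6 higher without overlap and a median matched difference of -2.82. The shares were 18.8% lower and 19.6% higher at all other shared regions, and 24.7% and 13.0% on the rest of chromosome 8. The tallest site of the domain, chr8:129568981-129569241 at 822 kb, ranked at 98.4 and 99.3 with AI-10-49 and 99.9 and 99.8 with DMSO, with 36 and 49 reads with AI-10-49 and 56 and 40 with DMSO. It was the highest of the 50 in every library, and its groups stood apart by a mean of -0.97 points only. The site at 415 kb, chr8:129162163-129162526, held as many peaks as the tallest distal site, 7. It ranked at 29.1 and 78.9 with AI-10-49 and 65.5 and 78.3 with DMSO, and its matched difference of -13.5 turned to 9.19 without AI-10-49 replicate 1. The 3 highest matched differences of the 50 sites lay between PVT1 and the distal block. At 793 kb, chr8:129540616-129540833 had 11 and 14 reads with AI-10-49 and 5 and 6 with DMSO. Its percentile was 71.1 and 73.7 with AI-10-49 and 21.4 and 38.3 with DMSO, a matched difference of 40.4 with 96.9% of 578 stratum neighbours lower. At 863 kb, chr8:129609959-129610181 ranked at 58.9 and 75.997 with AI-10-49 and 40.9 and 30.5 with DMSO, a matched difference of 32.2. At 1053 kb, chr8:129799983-129800270 ranked at 73.5 and 71.1 with AI-10-49 and 47.3 and 44.3 with DMSO, a matched difference of 29.5. At all 3 the groups did not overlap, also by percentile within the whole list, which ranks the same column 8 values. The 3 sites were picked for their high matched differences, so the lack of overlap is no separate evidence.

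Large differences in either direction were about as frequent as on the chromosome at large. A matched difference of -20 or lower was found at 8 sites (16%), against 14.8% of the rest of chromosome 8 and 11.7% of all other shared regions. One of 20 or higher was found at 5 sites (10%), against 7.92% and 13.1%. The spread between replicates was of the size of the difference between treatments. The median gap between libraries over the 50 sites was 15.4 points for AI-10-49 and 12.5 for DMSO, against a median absolute difference of 13.9 between the group means, which average 2 libraries each. At 17 sites (34%) the difference between the means exceeded both gaps, against 25.03% of all other shared regions.

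Across the 50 sites the ranks of column 8 correlated between the AI-10-49 libraries with a Spearman's rho of 0.762, and between the DMSO libraries with 0.776. Across treatments rho was 0.623 to 0.694. Over the 28992 other shared regions the values were 0.719 for AI-10-49, 0.610 for DMSO and 0.589 to 0.660 across treatments. These are descriptions across sites of the same 4 libraries. Of the sites, 17 ranked above the median of shared regions in all 4 libraries and 5 above the 90th percentile in all 4. These 5 did not include a site of the promoter block.

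The sites had a median width of 249.5 bp (133 to 741), against 212 bp at other shared regions, and 46 of 50 were a single peak in every list. The summits of the 4 libraries lay within a median of 42.5 bp, against 45 bp. Of the domain's other regions, 22 were in 3 lists, of which 5 and 7 were missing from AI-10-49 replicates 1 and 2 and 5 and 5 from DMSO replicates 1 and 2. Shared regions made up 27.8% of the domain's regions, against 28.1% elsewhere, and 4 of 6 in the promoter block, 10 of 34 in the PVT1 body and 12 of 33 in the distal block.

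At the bounds of the domain, the outermost sites inside were chr8:128004014-128004238 and chr8:130996553-130996834. The left one ranked at 43.0 and 56.4 with AI-10-49 and 85.4 and 93.4 with DMSO, and the right one at 96.6 and 96.7 with AI-10-49 and 97.5 and 99.1 with DMSO. Just outside, chr8:127976697-127976907 ranked at 56.9 and 59.6 with AI-10-49 and 73.2 and 64.1 with DMSO, and chr8:131007457-131007599 at 62.3 and 66.1 with AI-10-49 and 92.7 and 95.9 with DMSO. At each of these 4 regions both AI-10-49 percentiles lay below both DMSO percentiles, inside the domain and outside it alike. The same order held at 18.8% of all other shared regions and 24.7% of the rest of chromosome 8. No test of these 4 regions was made.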

How the data were processed

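Each library came as 1 deposited peak list on hg19. Per the submitters' processing notes, the tools were MACS2 2.1.0, Picard 1.96, cutadapt 1.3, deepTools and Bowtie2; their roles and settings are not given in the sources used here. A deposited peak has a score (not used), a fold enrichment, and a −log10 p-value and q-value as the authors' caller wrote them. Peaks of chromosomes 1 to 22 and X were kept, and rows with equal coordinates were collapsed to the highest −log10 p-value; 134 peaks without a summit took their midpoint. Peaks overlapping by at least 1 bp were merged. A region takes its highest peak in a library. Percentiles use average ranks.

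Summit reads k and local background b were recovered from fold = (k + 1)/(b + 1) and the Poisson p-value, with whole k (within 0.001 in −log10 p) for 99.98 to 99.99% of shared peaks of a library. Calculations used Python 3.11.15, pandas 2.3.3 and SciPy 1.17.1 and were checked on simulated data.

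No genome or annotation of hg19 was used, so exon, intron, motif and sequence were not analysed here. Nor were other genes of the MYC network, the MAX, MXD and MNT families, which the plan tied to such an annotation. Sites, blocks and tests were chosen with earlier results of these data known. Sites described singly are all promoter sites, the 4 sites of the PVT1 and distal blocks with the highest mean −log10 p-value with DMSO, the 3 lowest and 3 highest matched differences, the regions with most peaks and those at the domain's bounds; the sites at 96.4, 307, 822 and 1817 kb were added after their values were seen. Replicates are independent experiments on 1 cell line.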

Additional observations from a re-analysis of the deposited data

How the results depend on the processing

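The number of sites stayed within 1.5 times the main count under every alternative run. The domain medians in percentile points moved by less than the replicate spread, an SD of 4.47 in column 8 and 4.79 in column 7. That spread was larger than the main medians of -3.87 and -3.16. A median without any shift would also have stayed within it, so this does not show that the medians are stable. The medians were -6.34 to -0.76 points in column 8 and -6.79 to -2.46 in column 7, and log2 of column 7 gave -0.15. When peaks needed a −log10 q-value of 5 or more, 34 sites were left, and the promoter (2 sites) and distal medians were -13.7 and -2.71. With 50% reciprocal overlap, 36 sites were left, the PVT1 median was -8.12 and the distal median turned to 1.23. Summits within 150 bp gave -11.9 for the distal block, and matching on width as well gave -6.43 for PVT1 and -2.37 for the distal block. Without matching the promoter median was -13.6, and matched to chromosome 8 alone the PVT1 median was -0.34. The causes were not tested.

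Leaving out each library in turn gave 20 to 26 lower and 9 to 16 higher sites, since fewer values must be ordered, with 32.6 to 36.9% of other regions on either side. Medians were then -14.2 to -6.91 for the promoter block, -9.73 to 0.56 for PVT1 and -12.7 to -2.95 for the distal block. Within whole lists 25 sites were lower and 3 higher. With a replicate block, 22 sites were lower and 12 higher in both same-numbered pairs, against 27.2% and 27.0% of other regions. The deviations of same-numbered libraries correlated at r = 0.00545 over all shared regions, so no common deviation was seen. That does not settle whether the numbers pair the samples. By recovered reads, an alternative chosen after seeing the data, 20 were lower and 6 higher, against 18.8% and 20.3% of other regions. Of 247 values of singly named sites under the alternatives, 228 kept their direction, and the weak promoter site at 0.85 kb kept it in 6 of 13. The alternatives rank the same libraries, and some of these sites were picked for extreme matched differences. The tally is therefore no separate evidence of direction. Summits of 3 to 56 reads limit what a single site can show.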
